A study of Danio rerio with 11 samples.

Results

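Neuronal, ion channel and lens genes were followed array by array in livers dissected from zebrafish larvae. They were taken by gene symbol: symbols starting with syt, snc, snap2, stmn, elavl, neurod, gabr, gria, grin, kcn, cacn or rtn, with scn and a digit, or with crya, cryb or cryg. The names gave 52 of the 7792 genes that the arrays measure under a single symbol, through 63 probe sets, and the brightest probe set stood for each gene. The names use no measured value. They also take in 13 genes listed as known from other tissues as well, such as elavl1a, snap29, rtn4a and cacng1a, so the set is not a list of markers. That listing is not complete, since kcnh2a, also known from the heart, is not among them. Larvae were injected into the yolk at 2 days after fertilisation and livers were taken with forceps at 4 days. The 4 control arrays came from ahcy +/+ larvae given vehicle, the 4 azacytidine arrays from ahcy +/+ larvae given 1 mM azacytidine, and the 3 mutant arrays from ahcy -/- larvae given vehicle. Azacytidine is a cytidine analogue that traps DNA methyltransferases once it is built into DNA, and ahcy encodes the enzyme that clears S-adenosylhomocysteine, the by-product of methylation reactions. All RNA was amplified in 2 rounds. The labels do not say how many livers went into an array, whether clutches were shared or which ahcy allele was used, so the p-values cover no more than the differences among these arrays, and that spread may be technical.

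Synaptic vesicles release transmitter when synaptotagmins sense calcium and SNARE proteins such as SNAP-25 fuse the vesicle with the membrane, and synucleins are abundant presynaptic proteins. Stathmins regulate microtubules in growing axons, Hu proteins (elavl genes) bind neuronal transcripts, and NeuroD factors drive neuronal differentiation. Crystallins are the bulk proteins of lens fibre cells. Hepatocytes are not known for most of these products, and the larval liver lies close to gut, pancreas, yolk and body wall.

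Values are deposited log2 levels, on which a difference of 1 is a 2-fold change. Array medians lay between 5.89 and 6.17, and the 10th percentile of an array lay between 4.11 and 4.51. A level near that percentile is close to the background of the array, and the background subtraction of the authors makes it uncertain. Hepatocyte markers showed liver on every array, with a mean over 21 genes of 11.32 to 11.73 in controls, 11.72 to 12.03 with azacytidine and 9.58 to 10.43 in mutants. The ahcy transcript was at 12.3 to 12.47 in controls and at 12.11, 11.47 and 11.5 in the mutants, which does not check the genotype, since the position of the mutation is not in the labels. Probe sets for the 3' and 5' ends of muscle actin differed by 3.16, 3.38, 4.87 and 4.92 in controls 1, 2, 4 and 8, by 1.88 to 4.02 with azacytidine and by 5.59 to 6.21 in mutants. This end-to-end difference was therefore higher in controls 4 and 8 and in the mutants, the arrays on which sncb, syt1a and the members most like them below were high, and its part in those levels was not tested. The level of the muscle actin gene acta1a itself was 9.84, 10.43, 10.74 and 10.76 in controls 1, 2, 4 and 8. It was 9.03 to 9.94 with azacytidine and 11.54 to 12.05 in mutants, and its part in the end-to-end difference was not tested either.

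**Figure D1:**
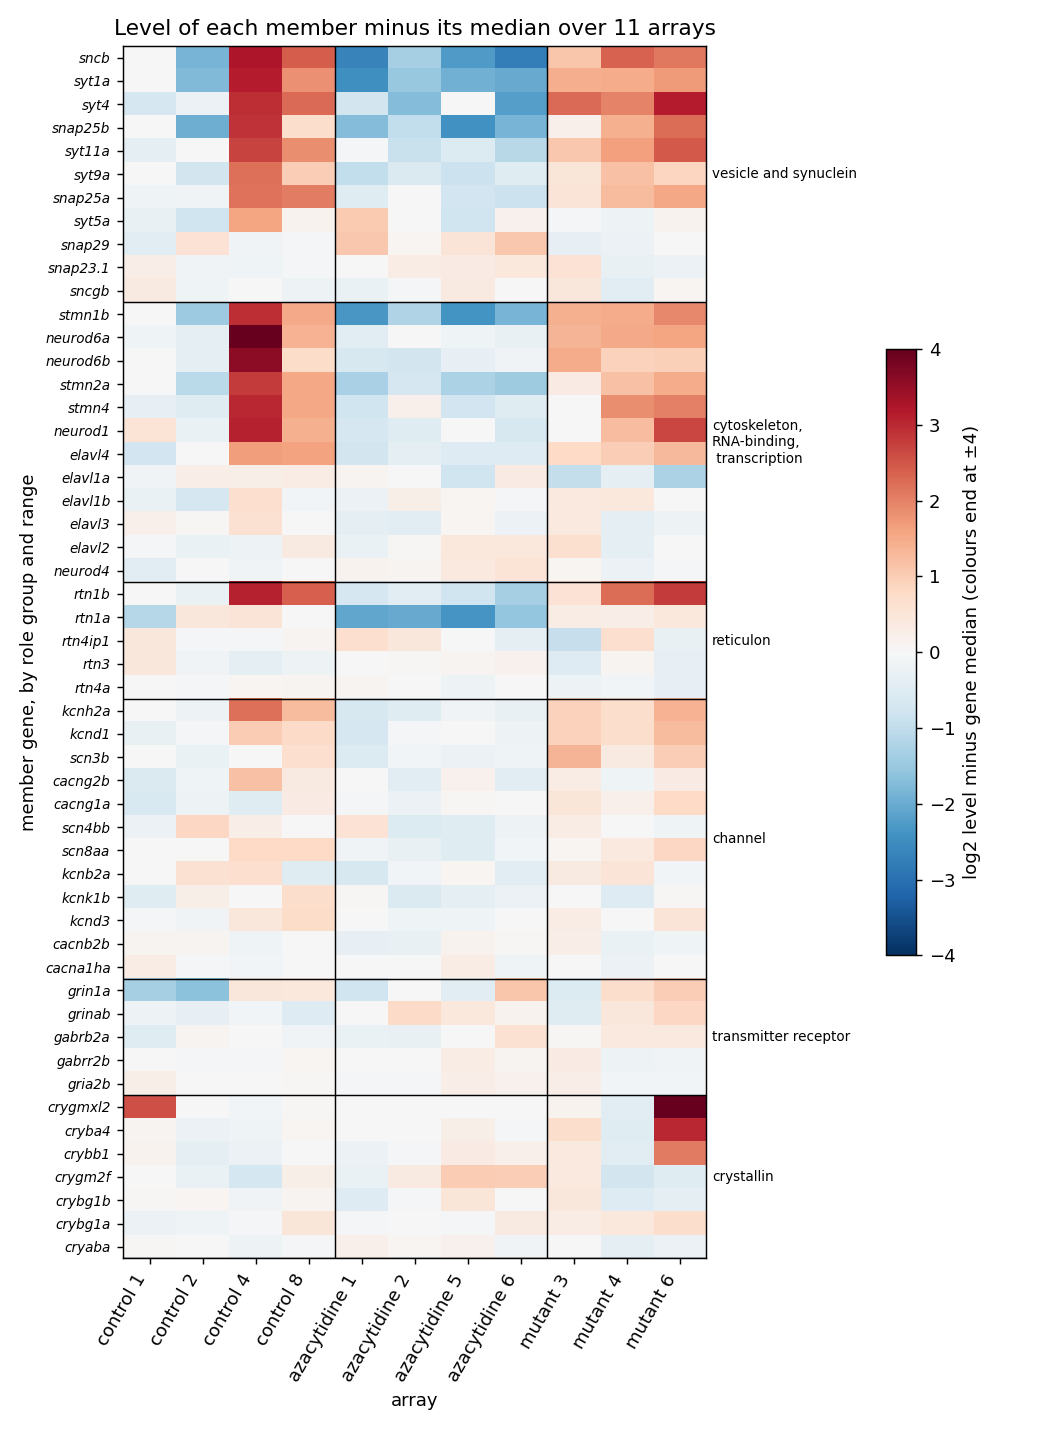
Log2 level of each of the 52 members (rows, by role group and then by range) on each of the 11 arrays (columns), as the difference from that gene's median over all arrays; red is above and blue below the median, and colours end at 4 units. Controls 4 and 8 and the mutants are mostly red for the genes at the top of the vesicle, cytoskeleton and channel groups and for rtn1b. Exceptions are mutant 3 for stmn4 and neurod1 and control 4 for scn3b, which are at or near the median. The azacytidine arrays are pale or blue for these genes, and mutant 6 is the darkest for crygmxl2, cryba4 and crybb1.

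The neuronal members did not follow the groups alone, because the controls differed among themselves. On control 4, 19 of the 52 members (36.5%) lay at least 1 above their own median over the arrays, against 7.14% of all 7792 genes. On control 8 it was 13 (25% against 3.75%), and on controls 1 and 2 it was 1 (the crystallin gene crygmxl2) and 0. Each azacytidine array had at most 2 such members, and mutants 3, 4 and 6 had 8, 13 and 18 (15.4%, 25% and 34.6%, against 9.42%, 10.7% and 13.8% of all genes). Control 4 was the highest of the 11 arrays for 21 members (40.4%), against 858 of all 7792 genes (11%). Mutant 6 was the highest for 9 members (17.3%), near its share of all genes (14.7%). Within controls, 19 members (36.5%) had a standard deviation over 1, against 6.47% of all genes. No member had such a deviation with azacytidine, where the share of all genes was also small, at 3.18%. In mutants 7 members (13.5%) had one, 3 of them crystallins, against 4.85% of all genes. In bulk tissue, fewer cells of a type and less RNA per cell cannot be told apart.

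The range over the 11 arrays differed widely among the members. It was under 1 for 12 members, among them rtn4a, gria2b, snap23.1 and cryaba, and over 3 for 16 (30.8%, against 13.2% of all genes). The 16 variable members were sncb, syt1a, syt4, syt9a, syt11a, snap25a, snap25b, stmn1b, stmn2a, stmn4, neurod1, neurod6a, neurod6b, rtn1b and the crystallins cryba4 and crygmxl2. Control 4 was the highest array for 13 of them, and mutant 6 for syt4 and both crystallins. Control 2 was the lowest control for 12. All 3 mutants lay inside the range of the controls for 13 of the 16, against 246 of the 1026 genes of any kind with a range over 3. Control 4 was the highest array for only 176 of those 1026 genes. The 16 were picked by their range on these same arrays, mostly through a high control 4 that widens the control range. The contrast is thus partly built in and is a description only.

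Among vesicle genes, the beta-synuclein gene sncb had the widest range. Its levels were 8.34, 6.48, 11.58 and 10.75 in controls 1, 2, 4 and 8, then 5.67, 7.02, 6.06 and 5.58 in azacytidine arrays 1, 2, 5 and 6, and 9.45, 10.69 and 10.46 in mutants 3, 4 and 6. Control 2 lay inside the azacytidine range, and the mutants fell between control 1 and control 4. The synaptotagmin 1 gene syt1a, a calcium sensor of fast transmitter release, was at 7.04, 5.28, 10.18 and 8.87 in the controls, 4.59 to 5.51 with azacytidine and 8.5, 8.51 and 8.75 in the mutants. The SNARE gene snap25b was at 7.37, 5.42, 10.27 and 8.07 in the controls, 5.62, 6.39, 4.95 and 5.5 with azacytidine and 7.56, 8.79 and 9.61 in the mutants. All of these have control 4 on top and control 2 at the level of azacytidine.

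The synaptotagmin gene syt4, known from dense-core vesicles, had controls 1 and 2 in the reverse order. For syt4 the levels were 6.49, 6.92, 10.1 and 9.4 in the controls, 6.41, 5.43, 7.15 and 4.94 with azacytidine and 9.41, 9.12 and 10.29 in the mutants. The family member syt5a stood apart: it was at 6.36, 5.86, 8.25 and 6.82 in the controls and at 7.71 in azacytidine array 1, and its mutant levels of 6.48 to 6.81 lay inside the control range. The SNARE genes known from non-neuronal membranes had other orders of arrays. Levels of snap23.1 stayed within 0.89 over all arrays, and snap29 was highest on azacytidine arrays 1 and 6, both at 6.65. The gamma-synuclein gene sncgb stayed within 0.86 on the probe set that stands for it, while the other one ranged from 5 on azacytidine array 1 to 6.54 on control 8.

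The stathmin gene stmn1b is among the members listed as known from other tissues as well. It was at 6.51, 5.07, 9.47 and 8.03 in the controls, 4.18, 5.32, 4.11 and 4.66 with azacytidine and 7.92, 7.98 and 8.44 in the mutants. The stathmin gene stmn2a, known from growing axons, was at 6.79, 5.71, 9.59 and 8.35 in the controls, 5.38 to 6.12 with azacytidine and 7.13, 7.97 and 8.28 in the mutants. Again the azacytidine arrays overlapped with control 2 alone among the controls. The neuronal transcription factor gene neurod6a was at 4.42, 4.22, 8.68 and 5.98 in the controls, 4.12 to 4.58 with azacytidine and 5.93, 6.11 and 6.16 in the mutants. Here controls 1 and 2 both lay at the azacytidine level, near the 10th percentile, and control 4 stood well above every mutant. Among the Hu genes, elavl4 was at 4.04, 4.81, 6.48 and 6.43 in the controls, 4.06 to 4.42 with azacytidine and 5.62 to 6.12 in the mutants. The classical neuronal marker elavl3 lay between 5.83 and 6.88, with control 4 highest, and each of its other 3 probe sets had a range under 1. The widely expressed relative elavl1a ran the other way, at 7.97 to 8.42 in the controls and 7.17, 7.75 and 6.86 in the mutants, without overlap.

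**Figure D2:**
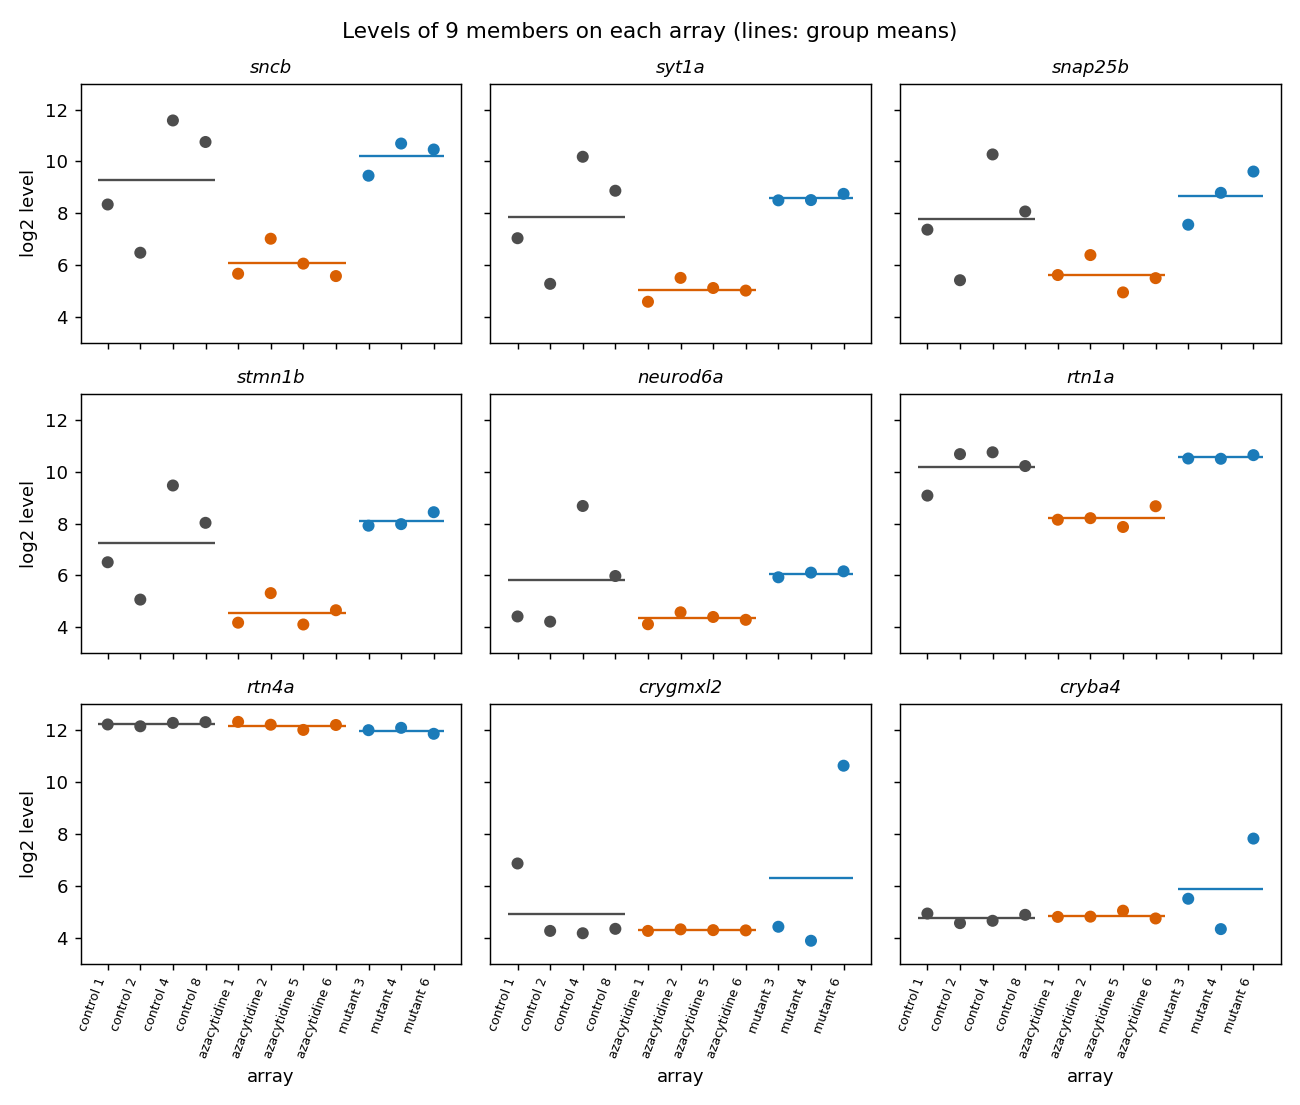
Log2 level (vertical axis) of 9 members on each of the 11 arrays (horizontal axis), with controls in grey, azacytidine in orange and mutants in blue; points are single arrays and lines are group means. Controls 4 and 8 and the mutants lie above all azacytidine arrays for sncb, syt1a, snap25b, stmn1b and neurod6a, rtn1a separates azacytidine from every other array, rtn4a is level at about 12, and crygmxl2 stands at 10.63 on mutant 6.

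Reticulons shape the tubules of the endoplasmic reticulum, and rtn1 genes are best known from neurons. The gene rtn1a did not share the order of the controls. Its levels were 9.08, 10.68, 10.75 and 10.22 in the controls, 8.15, 8.21, 7.87 and 8.67 with azacytidine and 10.51, 10.5 and 10.64 in the mutants. Every azacytidine array lay below every control and mutant, and control 2, low for sncb and syt1a, was close to control 4, the highest. Its second probe set was likewise high on control 2 (9.51) and at most 6.75 with azacytidine. The paralogue rtn1b followed the vesicle genes instead, at 6.6, 6.33, 9.69 and 8.99 in the controls, 5.28 to 6.15 with azacytidine and 7.17, 8.84 and 9.41 in the mutants. The widely expressed rtn4a had a mean level of 12.15 and a range of 0.46.

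Channel genes had a median range of 1.36, against 1.49 for all genes. The 12 channel members had a mean level of 4.85 to 5.49 on the control arrays, 4.72 to 4.91 with azacytidine and 5.14 to 5.48 in mutants, and none had a range over 3. The gene kcnh2a encodes an ERG-type potassium channel, also known from the heart. It was at 6.66, 6.47, 8.85 and 7.92 in the controls, 6.01, 6.16, 6.53 and 6.37 with azacytidine and 7.57, 7.37 and 8.06 in the mutants, so controls 4 and 8 and the mutants stood above the rest. The potassium channel gene kcnd1 was at 4.67, 4.91, 5.98 and 5.74 in the controls, 4.3 to 4.98 with azacytidine and 5.9, 5.69 and 6.23 in the mutants. The sodium channel beta subunit gene scn3b was highest in mutants, at 6.86, 5.87 and 6.48, against 5.53, 5.24, 5.5 and 6.18 in the controls and 4.96 to 5.38 with azacytidine. Among calcium channel genes, cacna1ha and cacnb2b stayed within 0.56 and 0.6. The gamma subunit gene cacng1a, known from skeletal muscle, lay below the 10th percentile on 10 arrays, with 4.75 on mutant 6, and kcnk1b did so on all 11 arrays.

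Transmitter receptor genes had a median range of 1.07, against 3.18 for the vesicle genes and 1.49 for all genes. The AMPA receptor gene gria2b stayed between 5.31 and 5.68, and the GABA receptor genes gabrr2b and gabrb2a had ranges of 0.54 and 1.07. Levels of gabrr2b lay below the 25th percentile of their array on 10 arrays, and those of grin1a below the 10th on 3. A small range at such low levels does not show steady expression. Only grin1a, the obligatory NMDA receptor subunit, spread widely, at 3.62, 3.3, 5.4 and 5.36 in the controls, 4.16, 4.95, 4.5 and 6.07 with azacytidine and 4.41, 5.64 and 5.92 in the mutants. Its highest level was thus on azacytidine array 6, where sncb and syt4 were lowest, and its second probe set stayed between 4.41 and 4.95. The gene grinab, a membrane protein of the TMBIM family rather than a receptor subunit, lay at 6.06 to 6.48 in the controls and 6.59 to 7.35 with azacytidine.

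High levels of 3 lens crystallin genes were seen mainly on a single array, while the lens crystallin gene crygm2f was not high there. The gamma crystallin gene crygmxl2 was at 6.86, 4.26, 4.17 and 4.34 in the controls, 4.26 to 4.32 with azacytidine and 4.42, 3.88 and 10.63 in mutants 3, 4 and 6. The beta crystallin gene cryba4 was at 4.56 to 4.93 in the controls, 4.74 to 5.04 with azacytidine and 5.5, 4.33 and 7.82 in the mutants, and crybb1 at 4.85 to 5.34, 4.96 to 5.54, and 5.58, 4.78 and 7.29. Mutant 6 was the highest array for all 3 genes, and mutant 4, from the same group, the lowest. Control 1 stood out for crygmxl2, while it was at 4.93 for cryba4 and 5.34 for crybb1. Control 4, with the highest neuronal levels, had no crystallin above 5.7. The remaining members of the family had smaller ranges: cryaba, a small heat shock protein, had a range of 0.55, crybg1a and crybg1b, whose products are known outside the lens as well, 0.92 and 1.01, and crygm2f 1.75 with its highest level on azacytidine array 5. The levels of crygm2f were 5.06 to 5.99 in the controls, 5.5, 6.12, 6.79 and 6.76 with azacytidine and 6.16, 5.04 and 5.3 in the mutants. Mutant 6 thus lay below every azacytidine array for crygm2f. Levels of cryaba lay below the 25th percentile of their array on 10 arrays.

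Marker lists for other tissues were set beside the members on each array. Of 79 listed neural genes outside the names above, 43 were measured, and their mean level was 6.22, 5.92, 8.07 and 7.19 in controls 1, 2, 4 and 8, 5.62 to 5.87 with azacytidine and 6.91, 7.09 and 7.43 in the mutants. Control 4 was the highest array for 25 of them, so genes outside the name families had the same order of controls. Glial and progenitor genes (13 of 24 measured) gave 6.16, 6.05, 7.71 and 6.71 in the controls, 5.67 to 5.76 with azacytidine and 6.85 to 7.37 in the mutants. Within that list the glutamate transporter gene slc1a2b was at 10.41 in control 4 and 8.49 to 9.61 in the mutants, against at most 5.72 with azacytidine. The glial filament gene gfap stayed between 4.44 and 4.86, below the 25th percentile of every array.

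Retina genes divided the controls differently from the neuronal members. Of 51 listed, 24 were measured, and their mean was 6.11, 4.61, 7.52 and 5.07 in controls 1, 2, 4 and 8, 4.52 to 4.83 with azacytidine and 5.27, 4.99 and 5.7 in the mutants. The cone transducin gene gnb3b was at 9.43, 3.45, 11.68 and 5.37 in the controls, at most 3.54 with azacytidine and at 5.65, 6.96 and 8.29 in the mutants. On control 8 the neuronal members were high and the retina genes were not. On control 1 retina genes were raised, and the 1 member at least 1 above its median was the crystallin gene crygmxl2. Control 1 was itself the median array for sncb (8.34) and syt1a (7.04), so these could not count as raised there. For both it lay above every azacytidine array, while for neurod6a it lay inside the azacytidine range. Mutant 6, with the highest crygmxl2, cryba4 and crybb1, had 8 of the 24 retina genes at least 1 above their median, against 18 on control 4 and 10 on control 1. The lens list outside the crystallins was measured only through prox1a, which is also a liver gene, so lens was read from crystallins alone.

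Muscle and skin markers moved with the groups more than with single controls. The mean of 24 of 34 skeletal muscle genes was 8.25 to 9.14 in controls, 7.69 to 8.35 with azacytidine and 9.83 to 10.42 in mutants, and that of 21 of 25 epidermis genes was 7.68 to 8.15, 6.65 to 7.62 and 9.07 to 9.92. Exocrine pancreas genes (14 of 20) were highest on control 2, at 10.02 against 5.45 to 7.52 on the other controls. Control 2 had the lowest neural mean of the controls. The orders were not simply reversed, since control 8 was second highest of the controls for both lists, at 7.52 for pancreas and 7.19 for neural genes. Endocrine cell genes (6 of 19, with isl1a on the neural list too) had means of 5.51, 4.97, 6.47 and 6.0 in controls 1, 2, 4 and 8. Their means were 4.67 to 5.4 with azacytidine and 5.54 to 6.05 in mutants. The mean of the endocrine list thus had the same order of controls as that of the neural list, but its genes did not all share it. For sst1.1 the levels were 7.38, 4.0, 6.21 and 6.45 in those controls. With 6 genes measured, the list does not settle whether the order was particular to neural genes. Of all list genes only the endocrine factor gene pdx1 lay below the 10th percentile on every array, which does not show that every tissue was present on each array. The retina mean of 4.52 to 4.83 with azacytidine lay below the 25th percentile of each of those arrays (4.87 to 5.03). The part of carried-over tissue in the differences below was not tested.

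**Figure D3:**
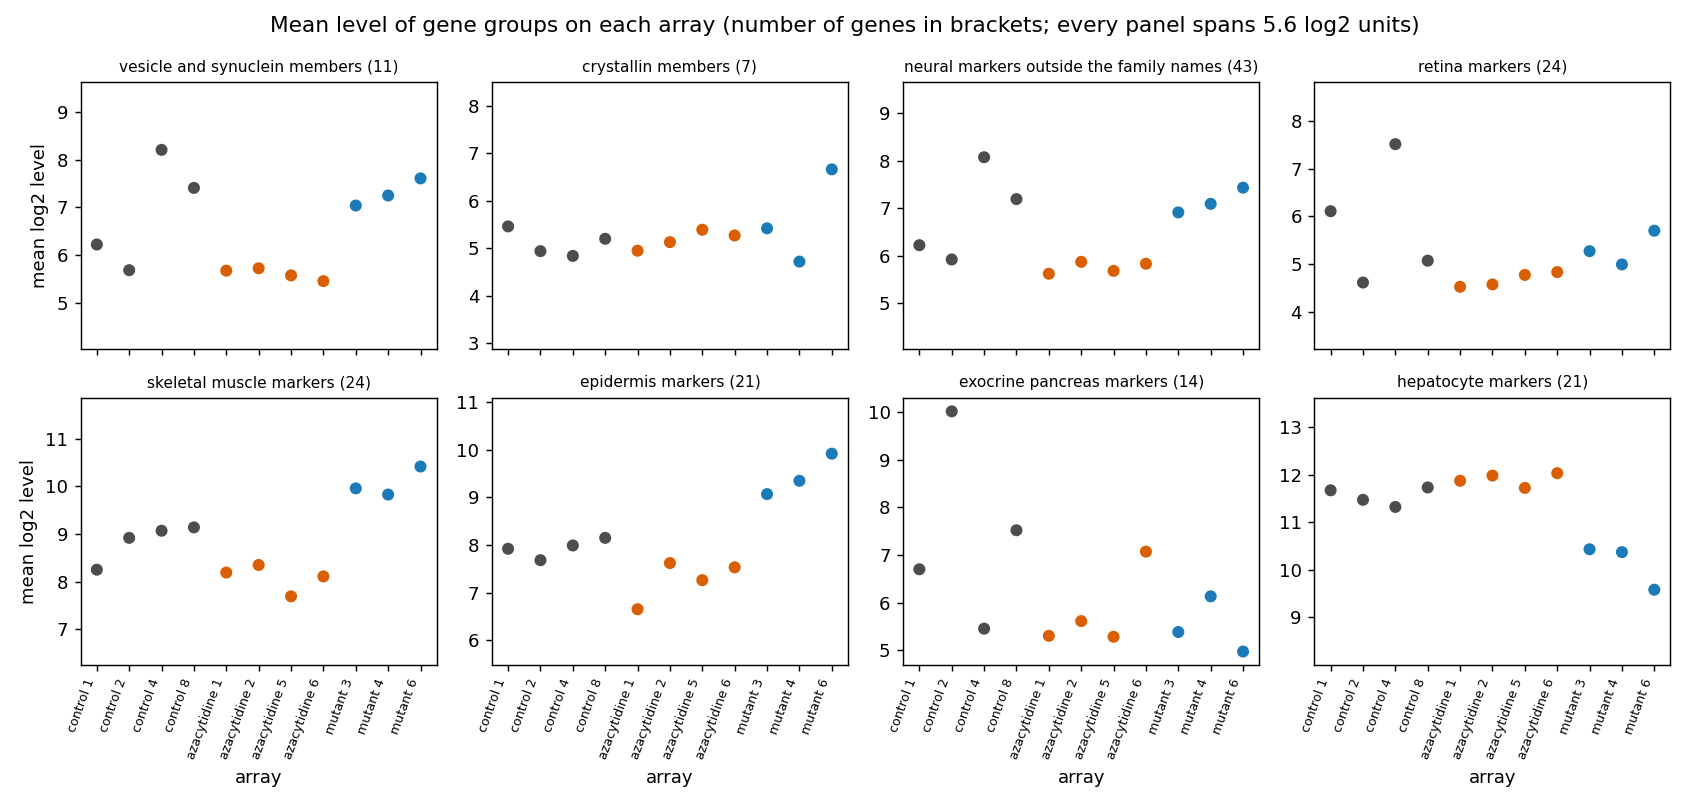
Mean log2 level (vertical axis, 5.6 units in every panel) of 2 role groups and 6 marker lists on each of the 11 arrays (horizontal axis), with controls in grey, azacytidine in orange and mutants in blue. Controls 4 and 8 lead the controls for vesicle and neural genes, controls 4 and 1 for retina genes and control 2 for exocrine pancreas genes, while the crystallin mean is highest on mutant 6 at 6.66.

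The first comparison was of azacytidine with vehicle in ahcy +/+ larvae. Of the 52 members 1 fell and none rose, in limma with Benjamini-Hochberg adjustment over all probe sets, where 0.167% of all genes were called lower and 0.436% higher. The member that fell was rtn1a, by 1.96 ± 0.33 (SE) on the log2 scale, a 3.88-fold difference (limma adjusted p = 0.023), and its second probe set gave -2.36 (adjusted p = 0.014). The call for rtn1a was lost without control 4, control 8, azacytidine array 2 or azacytidine array 5, where the difference stayed between -2.33 and -1.77 over the fits without 1 array and adjusted p reached 0.089. At an unadjusted p under 0.05, 16 members were lower and 2 higher, against 9.29% and 5.67% of all genes. The median difference of members was -0.35, against -0.03 for all genes.

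The largest differences with azacytidine were in vesicle and stathmin genes and did not pass the test. For sncb the difference was -3.21 ± 0.89 (adjusted p = 0.12), for syt1a -2.78 ± 0.79 (adjusted p = 0.13) and for stmn1b -2.7 ± 0.72 (adjusted p = 0.11). Each of these passed without control 2, when 5 members and 0.667% of all genes were called lower, sncb by -4.14 (adjusted p = 0.018). Without controls 4 and 8, a setting chosen after seeing the data, no member was called and the median difference of members was -0.09. Azacytidine levels did not overlap with controls for 3 members, which were lower (rtn1a, rtn1b and scn8aa, against 5.01% of all genes), and for 2, which were higher (neurod4 and grinab, against 4.15%). In the remaining role groups the largest differences were -1.21 ± 0.45 for kcnh2a (adjusted p = 0.23), 0.63 ± 0.29 for grinab (adjusted p = 0.33) and 0.71 ± 0.34 for crygm2f (adjusted p = 0.35). Of the 43 neural list genes none passed, 27 had an unadjusted p under 0.05, all lower, and the median was -1.03. Some other tissues were lower as well: 16 of 24 muscle, 6 of 14 exocrine pancreas and 7 of 21 epidermis genes had an unadjusted p under 0.05, all lower, with medians of -0.72, -1.86 and -0.76, and 2 muscle genes were called lower. Not all lists fell: 5 of 10 leukocyte and 7 of 21 hepatocyte genes had such a p, all higher, with medians of 0.38 and 0.16. Among them 2 leukocyte genes and 1 hepatocyte gene were called higher. Of the 7 erythrocyte genes 0 had such a p, and their median was 0.07.

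The second comparison was of ahcy -/- with ahcy +/+ larvae, both given vehicle. No member passed the limma test in either direction, although 6.48% of all genes were called higher and 7.17% lower, and 3 members had an unadjusted p under 0.05 on the higher side and 2 on the lower (15.1% and 13.6% of all genes). The median difference of members was 0.14, against 0.04 for all genes. Without controls 4 and 8, chosen after seeing the data, 18 of the 52 members were called higher, with 10.5% of all genes, and the median was 0.61. Those 2 controls were left out because these same genes were high on them, so the choice itself raises that count, and it is given as a description that supports no difference between mutants and controls.

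With all controls, the estimate for syt4 was 1.38 ± 0.83 (adjusted p = 0.32), for rtn1b 0.57 ± 0.78, for grin1a 0.9 ± 0.6 and for scn3b 0.79 ± 0.28 (adjusted p = 0.086). The crystallin gene crygmxl2 differed by 1.4 ± 1.28 (adjusted p = 0.54), and without mutant 6 by -0.76. The difference for cryba4 was 1.13 ± 0.58 (adjusted p = 0.24), 0.16 without mutant 6 and 1.91 without mutant 4, when it passed (adjusted p = 0.035). Both crystallin values therefore rested on mutant 6. Only elavl1a (-1.02 ± 0.32, adjusted p = 0.056) and rtn4a (-0.26 ± 0.1, adjusted p = 0.14) had mutant levels that did not overlap with controls, both lower, against 12.9% of all genes, and no member was wholly higher, against 11.5%. When arrays were centred on their medians, both passed the test. Of the 43 neural list genes only olfm1b was called, lower by -1.89 ± 0.31 (adjusted p = 0.0026). In the same comparison 13 of 24 muscle and 15 of 21 epidermis genes were called higher and 14 of 21 hepatocyte genes lower.

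The third comparison set the mutants against azacytidine. Of the 52 members 15 rose and 1 fell (28.8% and 1.92%), while 17.4% of all genes were called higher and 13.1% lower in limma. At an unadjusted p under 0.05 there were 20 higher and 2 lower, against 23.4% and 17.4% of all genes. With arrays centred on their own medians, 11 members were higher and 4 lower (12.6% and 18.7% of all genes), and with cyclic loess 10 and 4 (14.7% and 16.1%). Centring moves the median of all genes in this comparison from 0.07 to -0.14. The median difference was 0.41 over the members and 0.07 over all genes.

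By role, 7 of 11 vesicle genes, 3 of 12 cytoskeleton, RNA-binding and transcription genes, 2 of 5 reticulons and 3 of 12 channels rose, and no receptor or crystallin gene did. The largest rise was that of sncb, by 4.12 ± 0.96, or 17.4-fold (adjusted p = 0.0083). Rises of 3.62 ± 0.83 in syt4 (adjusted p = 0.0073), 3.55 ± 0.78 in stmn1b (adjusted p = 0.006) and 3.53 ± 0.85 in syt1a (adjusted p = 0.0097) followed. The gene rtn1a rose by 2.33 ± 0.36 with the smallest adjusted p of the members, 0.00091, and scn3b by 1.18 ± 0.28 (adjusted p = 0.0086). These 6 genes passed in each of the 11 fits without 1 array. The rises of snap25b (3.04 ± 0.88), rtn1b (2.69 ± 0.78), syt11a (2.38 ± 0.65) and kcnd1 (1.2 ± 0.32) had adjusted p between 0.015 and 0.023 and lost their calls without mutant 6. Those of snap25b and rtn1b were also lost without mutant 4, and that of snap25b without azacytidine array 5. Calls for stmn2a, elavl4, kcnh2a and, outside the naming rule and chosen after their values were seen, snap25a and syt9a had adjusted p between 0.032 and 0.049, and each was lost in at least 6 of the 11 fits.

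The SNARE gene snap29, which acts in membrane fusion outside synapses, was the member that fell, by 0.88 ± 0.29 (adjusted p = 0.042), a call lost in 7 of the 11 fits without 1 array (control 8, azacytidine arrays 1, 5 and 6, and each mutant). Its second probe set differed by -0.46 (adjusted p = 0.094). For the crystallin crygmxl2 the difference was 2.02 ± 1.28 (adjusted p = 0.26), and -0.14 without mutant 6. For cryba4 it was 1.04 ± 0.58 (adjusted p = 0.2), 0.07 without mutant 6 and 1.81 without mutant 4, when it passed (adjusted p = 0.021). Without mutant 6 the number of members called higher dropped to 6 of 52, with 10.6% of all genes called higher, the same 6 that passed in every fit without 1 array. With all arrays, 17.4% of all genes were called higher and 13.1% lower. In that fit 19 of the 43 neural list genes were called higher and 1 lower, and 7 of the 13 glial and progenitor genes higher. Of the 6 endocrine cell genes 4 were called higher (chga, scg3, scg5 and isl1a, the last on the neural list too). Of the 24 retina genes 1 was called higher (4.17%), a smaller share than that of all genes. Muscle and epidermis genes were called higher in 22 of 24 and 17 of 21 cases, and hepatocyte genes lower in 18 of 21. The 3 comparisons share arrays: each group enters 2 of them.

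**Figure D4:**
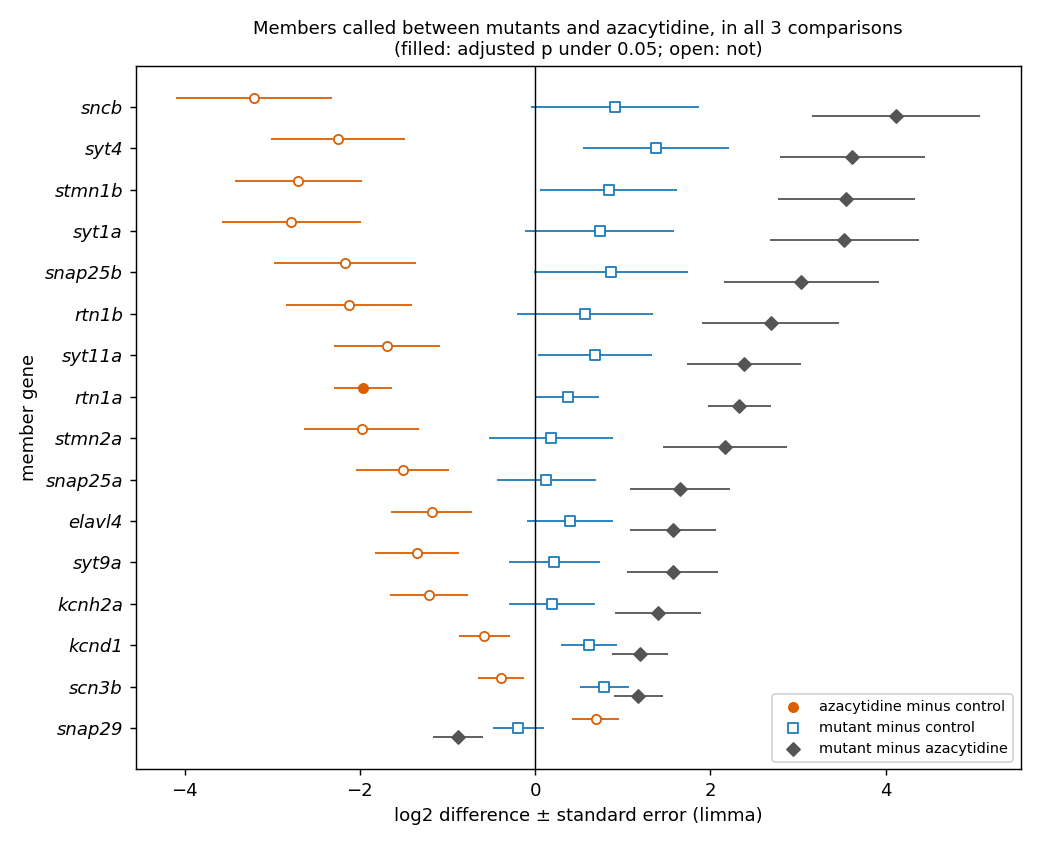
Log2 differences with limma standard errors (horizontal axis) for the 16 members called between mutants and azacytidine (vertical axis), in all 3 comparisons: azacytidine minus control in orange, mutant minus control in blue and mutant minus azacytidine in grey. Filled symbols passed the test at an adjusted p under 0.05; of the orange symbols only that of rtn1a is filled, and none of the blue ones.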

How the data were processed

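Each array has 1 deposited value per probe set, a log2 level. The submitters' processing notes name GCRMA and Partek, without versions. GCRMA subtracts background and normalises across arrays, so low levels are uncertain. Of 12830 probe sets 46 array controls were left out and 12784 tested, without a further filter. Columns of other samples numbered 0. By the platform annotation 8994 probe sets carry a single symbol. The 110 with several and the 3680 without any were left unnamed. All 63 member probe sets matched a current gene ID, which changed 0 symbols. The probe sets of cryba4, elavl1b and grin1a carry names that mark possible sharing between transcripts.

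The means of the 3 groups were fitted together over 11 arrays, leaving 8 residual degrees of freedom, with limma 3.58.1 in R 4.3.3, with a mean-dependent variance trend, tested 2-sided and adjusted by Benjamini-Hochberg over all probe sets. It assumes equal spread in all groups, which controls and azacytidine arrays did not share for the neuronal members. The fit was also run on simulated data. Those had independent noise of the same spread in every group, so they do not cover the neuronal members. No detection calls were used. Members, lists and tests were chosen with earlier results of these data known. Named genes were, per role group, the 5 highest and the 5 widest in range, up to 12 called members per direction by smallest p, and the largest difference where none was called. Other members that the text names (cacna1ha, kcnk1b, scn8aa, cryaba, neurod1, neurod4, snap23.1, snap25a, sncgb and syt9a) were picked after their values were seen, as was the fit without controls 4 and 8. Alternatives covered the variance trend, normalisation, a dim filter, fits of 2 groups, the sample number as a block, probe set choice and each array left out.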

Additional observations from a re-analysis of the deposited data

Results flagged for a closer look

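Among the named members and group means, 94 sets of 4 arrays were examined for an array far from the other 3, and 3 stood out. Chance gives about 1 in 20. The crystallin gene crygmxl2 was at 6.86 on control 1, against 4.17 to 4.34 on the other controls. The RNA-binding protein gene elavl1a was at 7.97 on control 1, against 8.36 to 8.42. The gene crybg1a was at 5.28 on azacytidine array 6, against 4.86 to 4.93. Control 4 met no such limit for the neuronal members, because control 8 lay between it and the others.

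A probe set that the annotation gives to several genes, most of them gamma crystallins, was left out of the set. It was at 12.7 on mutant 6 and between 5.05 and 8.75 on the other arrays, with control 1 at 8.75. Mutant 6 and control 1 were also the highest arrays for crygmxl2.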

How the results depend on the processing

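The number of arrays and levels close to background limit these results. Azacytidine against controls had 1 member lower and 0 higher. With only the 2 groups compared, with the sample number as a fixed block, and without controls 4 and 8, 0 were lower, and the fits without 1 array gave 0 to 5. Mutants against controls had 0 lower and 0 higher. Without the variance trend 1 was lower (elavl1a), with centring 2 (elavl1a and rtn4a) and with cyclic loess 1 (elavl1a). Leaving out 1 array gave 0 to 1 lower (elavl1a, without azacytidine array 5 or mutant 4) and 0 to 2 higher (neurod6b without control 4, scn3b and cacng1a without control 8, grinab without mutant 3, scn3b and cryba4 without mutant 4), with medians from -0.02 to 0.49. Without controls 4 and 8 there were 18 higher and the median was 0.61. Mutants against azacytidine had 15 higher and 1 lower. With only the 2 groups compared, 20 were higher and 1 lower (18.2% and 12.3% of all genes). Centring and cyclic loess gave 4 lower each, with a median of 0.19 for both, and the fits without 1 array 6 to 19 higher and 0 to 1 lower (6 without mutant 6, 9 without mutant 4 or azacytidine array 5).

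Taking the sample number as a fixed block leaves few residual degrees of freedom, so few calls can be made. Mutant 3, azacytidine array 5 and control 8 share their number with no other array, so they then add nothing to the differences. This fixed block left 0 higher and 0 lower members in mutants against azacytidine, with a median of 0.16, and 58 and 104 genes of all kinds called. It reversed grin1a there (-0.43) and, against controls, cryba4 with azacytidine (-0.63) and kcnh2a, rtn1a and syt9a in mutants (-0.4, -0.04 and -0.25). As a random block it gave 14 and 1. Same-numbered arrays of different groups had deviations correlated at -0.21 to 0.03. These pairs of arrays showed no sign of pairing, but they are too few to settle whether the numbers pair the samples.

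Signs also turned for estimates near 0 in mutants against controls. With cyclic loess snap25a gave -0.01. Without 1 array the estimates ran from -0.07 to 0.75 for elavl4, -0.14 to 0.65 for kcnh2a, -0.25 to 0.53 for snap25a, -0.32 to 0.01 for snap29, -0.02 to 1.68 for sncb, -0.45 to 0.84 for stmn2a, -0.11 to 1.52 for syt1a, -0.23 to 0.74 for syt9a and -0.76 to 2.62 for crygmxl2. For crygmxl2 in mutants against azacytidine they ran from -0.14 to 3.24. The cause was not tested.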

Other observations

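Several genes of the neural list did not follow its mean. Among them atp1b3a was highest on azacytidine array 6 (11.42) and control 2 (11.11), and tubb4b stayed between 11.22 and 11.86 over all arrays. The olfactomedin gene olfm1b was bright on every array, at 10.24 to 11.15 in controls and 10.19 to 11.08 with azacytidine, and at 9.01, 8.26 and 9.38 in the mutants, unlike any vesicle gene. The G protein subunit gene gng13b was highest on mutant 3, at 8.27, against 6.56 and 6.0 on mutants 4 and 6 and 4.94 to 6.4 in controls. It was called higher in mutants than with azacytidine (2.22 ± 0.48, limma adjusted p = 0.0054). All of these genes were picked out after their values were seen.

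Probe sets of a gene did not always have the same spread. The second probe set of sncb was at 4.91, 4.24, 8.12 and 5.69 in the controls, 3.89 to 4.15 with azacytidine and 5.35 to 6.18 in the mutants, so mutants lay 1.83 above azacytidine (adjusted p = 0.062) where the one standing for the gene gave 4.12. For syt11a the second probe set differed by 1.48 (adjusted p = 0.0043), and for stmn1b by 2.27 (adjusted p = 0.039). For syt1a the second probe set differed by 2.0 (adjusted p = 0.086) and was not called, where the one standing for the gene gave 3.53.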
